A study of Mus musculus with 27 samples.

Results

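The genes described here are 46 cell cycle and DNA replication genes, chosen by symbol from the 37332 genes of the count table and followed over 3 mouse cell types and 3 subcellular fractions. All 46 were found in the table and all passed the low-count filter that kept 18249 genes. The cell types were the E14 embryonic stem cell line, kept on gelatin with LIF (mESC), a neural progenitor line, kept in B27 medium with EGF and FGF (mNPC), and primary cortical neurons, labelled E15D5 and plated for 5 days (mCtx). Each cell type was separated into chromatin-associated RNA, soluble nucleoplasmic RNA and cytoplasmic RNA, with 3 biological replicates in each of the 9 groups and 27 libraries in all. RNA longer than 200 nt was depleted of ribosomal RNA and sequenced without poly(A) selection as stranded 100 bp read pairs. The mESC and mNPC groups each stand for 1 line, and the labels do not say whether the neurons of a replicate were pooled from several embryos.

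A cell copies its DNA once in each division. Before S phase, the origin recognition complex, Cdc6 and Cdt1 load the Mcm2-7 helicase on origins, geminin (Gmnn) blocks a second loading, and cyclin E with Cdc25a moves the cell into S phase. In S phase, the GINS complex activates the helicase, Pcna clamps the polymerases to DNA, and ribonucleotide reductase and thymidylate synthase supply nucleotides. Cyclins A and B with Cdk1 then start mitosis, in which Aurora and Polo-like kinases, kinesins and kinetochore proteins move the chromosomes and Cdc20 triggers their separation. In dividing cells E2F factors are known to drive the replication genes, and the DREAM and Mybl2-Foxm1 complexes to time the mitotic genes through a promoter element called CHR. Neurons leave the cell cycle when they form, whereas stem cells and progenitors divide. By these roles 20 of the 46 genes were taken as replication and G1/S genes and 23 as mitotic genes, Mki67 and Top2a included, beside the transcription factors E2f1, Foxm1 and Mybl2.

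The promoters of 6 genes are shown because these elements stand in different shares of the replication and the mitotic promoters. Each is 200 bases of the window before the annotated start, from RefSeq (GRCm38.p6), 5′ to 3′ on the gene's strand, with capitals for CHR (TTTGAA), for CCAAT and for the E2F motif (TTT, then 2 bases that are each C or G, then CGC) on either strand. The first 3 belong to mitotic genes, Mki67 at chr7:135716380-135716579 (minus strand), Cdk1 at chr10:69352913-69353112 (minus) and Cdc20 at chr4:118437344-118437543 (minus). The last 3 belong to replication genes, Orc1 at chr4:108579254-108579453 (plus), Mcm5 at chr8:75109309-75109508 (plus) and Mcm6 at chr1:128359706-128359905 (minus).
Mki67: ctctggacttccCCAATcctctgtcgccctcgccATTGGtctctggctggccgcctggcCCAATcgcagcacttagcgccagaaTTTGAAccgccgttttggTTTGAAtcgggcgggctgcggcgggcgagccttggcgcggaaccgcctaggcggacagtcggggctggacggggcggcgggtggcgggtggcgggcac
Cdk1: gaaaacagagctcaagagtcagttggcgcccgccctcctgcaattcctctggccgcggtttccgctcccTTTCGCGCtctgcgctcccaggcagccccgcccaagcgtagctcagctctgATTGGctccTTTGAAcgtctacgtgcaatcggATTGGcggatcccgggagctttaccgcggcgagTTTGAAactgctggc
Cdc20: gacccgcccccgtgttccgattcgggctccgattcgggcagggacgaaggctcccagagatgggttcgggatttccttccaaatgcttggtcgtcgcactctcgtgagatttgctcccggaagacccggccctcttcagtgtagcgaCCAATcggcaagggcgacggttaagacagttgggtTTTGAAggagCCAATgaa
Orc1: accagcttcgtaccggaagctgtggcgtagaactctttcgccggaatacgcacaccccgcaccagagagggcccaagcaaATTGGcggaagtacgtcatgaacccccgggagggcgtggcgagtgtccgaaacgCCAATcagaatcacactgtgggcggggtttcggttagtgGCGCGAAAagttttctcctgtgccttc
Mcm5: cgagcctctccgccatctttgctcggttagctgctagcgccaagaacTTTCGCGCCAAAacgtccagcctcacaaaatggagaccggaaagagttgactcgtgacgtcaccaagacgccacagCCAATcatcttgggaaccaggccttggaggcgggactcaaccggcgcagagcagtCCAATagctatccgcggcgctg
Mcm6: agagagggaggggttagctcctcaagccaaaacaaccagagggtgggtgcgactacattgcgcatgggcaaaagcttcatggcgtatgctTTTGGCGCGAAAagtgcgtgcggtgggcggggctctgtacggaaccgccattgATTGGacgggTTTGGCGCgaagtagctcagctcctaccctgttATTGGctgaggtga
RefSeq windows of 300 bases, 250 before and 50 after the start, were matched by symbol for 36 of the 46 genes, 37 windows in all. CHR letters stood in a window of 12 of 17 cyclin, kinase, spindle and kinetochore genes and of 1 of 15 replication and G1/S genes, Mcm2. The E2F letters stood in a window of 8 of those 15 genes, namely Orc1, Cdc6, Cdt1, Mcm3, Mcm5, Mcm6, Mcm7 and Cdc25a, and in 1 of those 17, Cdk1. CCAAT stood in 10 of the 15 and in 14 of the 17. Over all members CHR was in 40.5%, CCAAT in 73.0% and the E2F letters in 24.3% of windows, against 17.9%, 37.4% and 2.26% of 32851 windows of the same length. CHR and CCAAT stood together in 37.8% of member windows and in 6.95% of all windows. In Mcm5 and Mcm6 matches of the E2F letters overlap each other. A match describes the letters and is not a measured binding site, and no match says only that the letters are not in the window.

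Library totals ran from 11249862 to 19871198 counts, and the counts cover whole gene spans, introns included. Levels are given in CPM, counts scaled by the effective library size. Values within a fraction are shares of its RNA, so fewer cells of a type and less RNA per cell cannot be told apart. The 3 replicate numbers are labelled biological replicates, and p-values measure the spread between these libraries. Among 8 pluripotency markers the summed level was 3797 to 4212 CPM in mESC cytoplasm and below 9 CPM in each library of the other cell types. In cytoplasm 9 neural progenitor markers summed to 6686 to 7457 CPM in mNPC, and to 1017 to 1202 CPM in mCtx, where all 9 were at 1 CPM or more. Neuron markers, 10 in number, summed to 5311 to 5843 CPM in mCtx cytoplasm and 612.7 to 764.9 CPM in mNPC, and 3 intermediate progenitor markers to 50.95 to 58.58 CPM in mCtx cytoplasm. Markers of the oligodendrocyte lineage, 6 in number, summed to 1100 to 1181 CPM in mNPC cytoplasm, 87.9 to 107.7 CPM in mCtx and 6.18 to 10.7 CPM in mESC. Astrocyte markers, also 6, summed to 261.3 to 396.7 CPM in mNPC cytoplasm, 200.3 to 235.5 CPM in mCtx and 51.84 to 91.55 CPM in mESC. The part of RNA from these other cell types in the values below was not tested.

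The 46 genes together took the largest share of RNA in stem cells and the smallest in neurons in every fraction. Their counts, scaled to library totals, summed to 5626 ± 320 CPM in mESC chromatin, 3808 ± 406.5 in mNPC chromatin and 438.5 ± 21.9 in mCtx chromatin (SD, n = 3). In nucleoplasm the sums were 6142 ± 629, 4342 ± 540 and 943.2 ± 32.2. Mitochondrial genes there took 27.9 to 29.8% of counts for mESC, 7.81 to 15.7% for mNPC and 2.01 to 2.30% for mCtx, and the part of this difference in the nucleoplasm values was not tested. In cytoplasm they were 12020 ± 672, 5412 ± 390 and 1242 ± 64. The neuron libraries lay below all libraries of the other cell types in each fraction. No group mean of a single gene was highest in neurons, and in cytoplasm 38 of the 46 followed the order mESC, mNPC, mCtx.

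**Figure D1:**
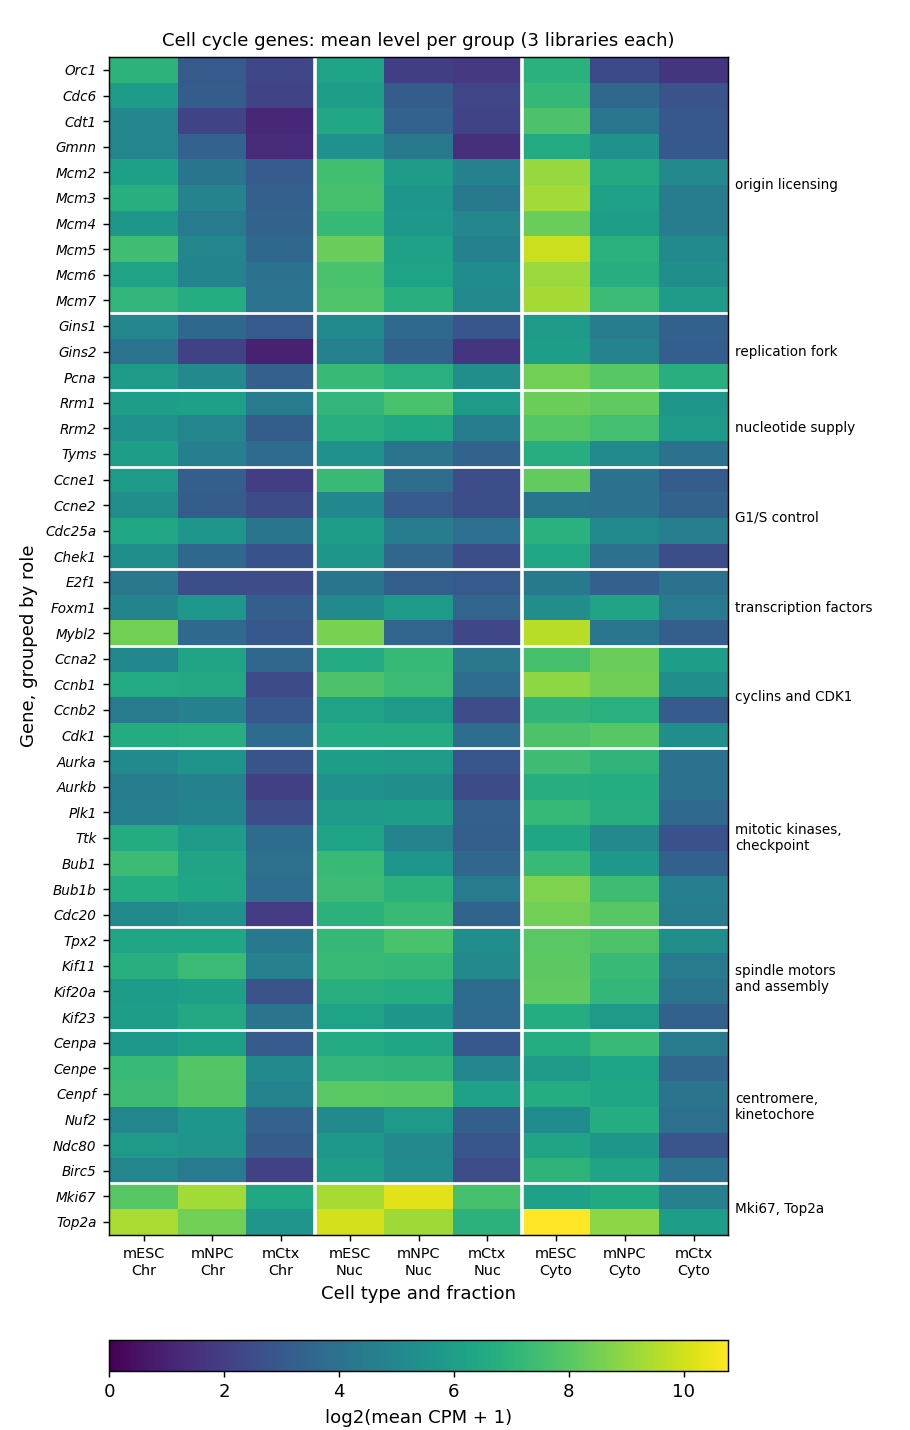
Heat map of log2(mean CPM + 1) for the 46 genes (rows, ordered by role) in the 9 groups of 3 libraries (columns, cell type within fraction). Low levels are dark. The columns of mCtx are the darkest in each fraction, E2f1 in cytoplasm being an exception. Most replication genes of mNPC are darker than those of mESC, Rrm1 on chromatin and in nucleoplasm being exceptions.

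The comparison of neurons with progenitors sets primary neurons beside a separate progenitor line kept with EGF and FGF. Cell type therefore cannot be told apart from origin and culture. Nearly all members were lower in mCtx. In cytoplasm 45 of 46 were lower and 1, E2f1, was higher, beside 33.4% lower and 32.6% higher of all 18249 genes (edgeR quasi-likelihood test, Benjamini-Hochberg adjusted p under 0.05, as throughout). In nucleoplasm 43 were lower and none higher (34.9% and 36.9% of all genes), and Ccne2, E2f1 and Orc1 did not pass. On chromatin 45 were lower and none higher (39.2% and 30.2% of all genes), and E2f1 did not pass. The members' median log2 fold changes were -2.28 on chromatin, -2.05 in nucleoplasm and -2.27 in cytoplasm, beside -0.18, 0 and 0 over all genes. The deposited TPM, which are per length and relative to all RNA of a library, gave fewer lower members on chromatin and in nucleoplasm, 24 lower and 7 higher and 16 lower and 9 higher. With TPM the median of all genes itself shifted, to 0.99 on chromatin and 0.81 in nucleoplasm.

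Mitotic genes were lower in neurons in each fraction, 23 of 23 in all 3, with medians of -2.81, -2.66 and -2.79 on chromatin, in nucleoplasm and in cytoplasm. Cyclin B1 (Ccnb1), which activates Cdk1 for entry into mitosis, stood at 311, 372 and 361 CPM in the mNPC cytoplasm libraries and at 41.7, 42.3 and 36.3 CPM in mCtx, a log2 fold change of -3.12 ± 0.13 (SE, adjusted p = 2.31e-17). Later values in parentheses are log2 fold changes with their SE. The groups did not overlap, and the 3 neuron libraries lay close together. Its partner gene Ccnb2 stood at 105, 121 and 114 CPM in mNPC and 7.25, 8.002 and 7.98 CPM in mCtx, 14.6-fold lower (-3.87 ± 0.12, adjusted p = 2.86e-19). Every neuron library lay far below every progenitor library.

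Cdc20, the activator of the anaphase-promoting complex, stood at 225, 272 and 245 CPM in mNPC cytoplasm and 22.9, 25.1 and 20.4 CPM in mCtx (-3.44 ± 0.16, adjusted p = 3.4e-16). The neuron values were again narrow and separate. The checkpoint gene Bub1b was at 174, 187 and 154 CPM in mNPC and 25.1, 24.7 and 21.8 CPM in mCtx (-2.85 ± 0.14, adjusted p = 1.25e-15). Tpx2, which nucleates spindle microtubules, was at 228, 225 and 201 CPM in mNPC and 41.5, 39.4 and 34.8 CPM in mCtx (-2.50 ± 0.13, adjusted p = 1.71e-15). Neither gene's groups overlapped. Cenpf, a kinetochore protein, was at 77.7, 88.9 and 74.8 CPM in mNPC and 18.4, 15.8 and 16.4 CPM in mCtx (-2.26 ± 0.14, adjusted p = 2.23e-13), and here too every neuron library was the lower one.

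Mki67 encodes Ki-67, the coat protein of mitotic chromosomes used as a marker of cycling cells. Its cytoplasmic level was 102, 92.9 and 79.3 CPM in mNPC and 29.4, 23.2 and 21.6 CPM in mCtx, 3.70-fold lower (-1.89 ± 0.17, adjusted p = 1.54e-10). On chromatin it was at 545, 669 and 624 CPM in mNPC and 83.3, 88.6 and 80.6 CPM in mCtx. Progenitors lay above neurons without overlap in both fractions. Top2a, the topoisomerase that untangles sister chromatids, was at 539, 560 and 391 CPM in mNPC cytoplasm and 68.1, 58.4 and 59.7 CPM in mCtx (-3.00 ± 0.13, adjusted p = 1.74e-16). The mNPC library 3 was the lowest of its group, and still lay above all neuron libraries.

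Replication and G1/S genes were lower in neurons by smaller median changes, -1.35, -1.32 and -1.41 on chromatin, in nucleoplasm and in cytoplasm, with 20, 18 and 20 of 20 lower. The difference in size between these genes and the mitotic genes was not tested. Mcm5, a subunit of the replicative helicase, was at 114, 130 and 108 CPM in mNPC cytoplasm and 35.3, 35.7 and 31.5 CPM in mCtx (-1.78 ± 0.18, adjusted p = 2.9e-09). Neuron libraries were all lower, and all held the transcript. Measured as TPM, Mcm5 was lower in mCtx than in mNPC in cytoplasm, at 4.19 ± 0.54 and 12.01 ± 2.52, but higher on chromatin, at 4.65 ± 0.30 and 3.63 ± 0.54 (SD, n = 3). Most of the 20 genes turned likewise in mean TPM. On chromatin only Gmnn, Mcm3, Mcm7, Pcna and Rrm2 were lower in mCtx, and in nucleoplasm only Gins2, Gmnn and Rrm2. Orc1 was at 3.48 in mCtx and 1.11 in mNPC chromatin, and Pcna at 27.1 and 19.5 in nucleoplasm. The TPM median of all genes also shifted there, as given above.

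Pcna was at 199, 282 and 260 CPM in mNPC cytoplasm and 118, 107 and 99.9 CPM in mCtx (-1.19 ± 0.19, adjusted p = 3.34e-06). Its groups did not overlap. Rrm1, the large subunit of ribonucleotide reductase, was at 269, 325 and 246 CPM in mNPC and 50.5, 54.1 and 49.5 CPM in mCtx (-2.45 ± 0.19, adjusted p = 1e-11), also without overlap. E2f1, which encodes the transcription factor that switches on replication genes, was the exception. It stood at 7.41, 8.52 and 10.4 CPM in mNPC cytoplasm and 15, 15.8 and 15.3 CPM in mCtx, 1.75-fold higher (0.81 ± 0.16, adjusted p = 8.91e-05). All neuron libraries lay above all progenitor libraries in cytoplasm, while its means were 4.95 and 4.90 CPM on chromatin and 8.67 and 7.35 CPM in nucleoplasm of mNPC and mCtx, which did not pass.

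**Figure D2:**
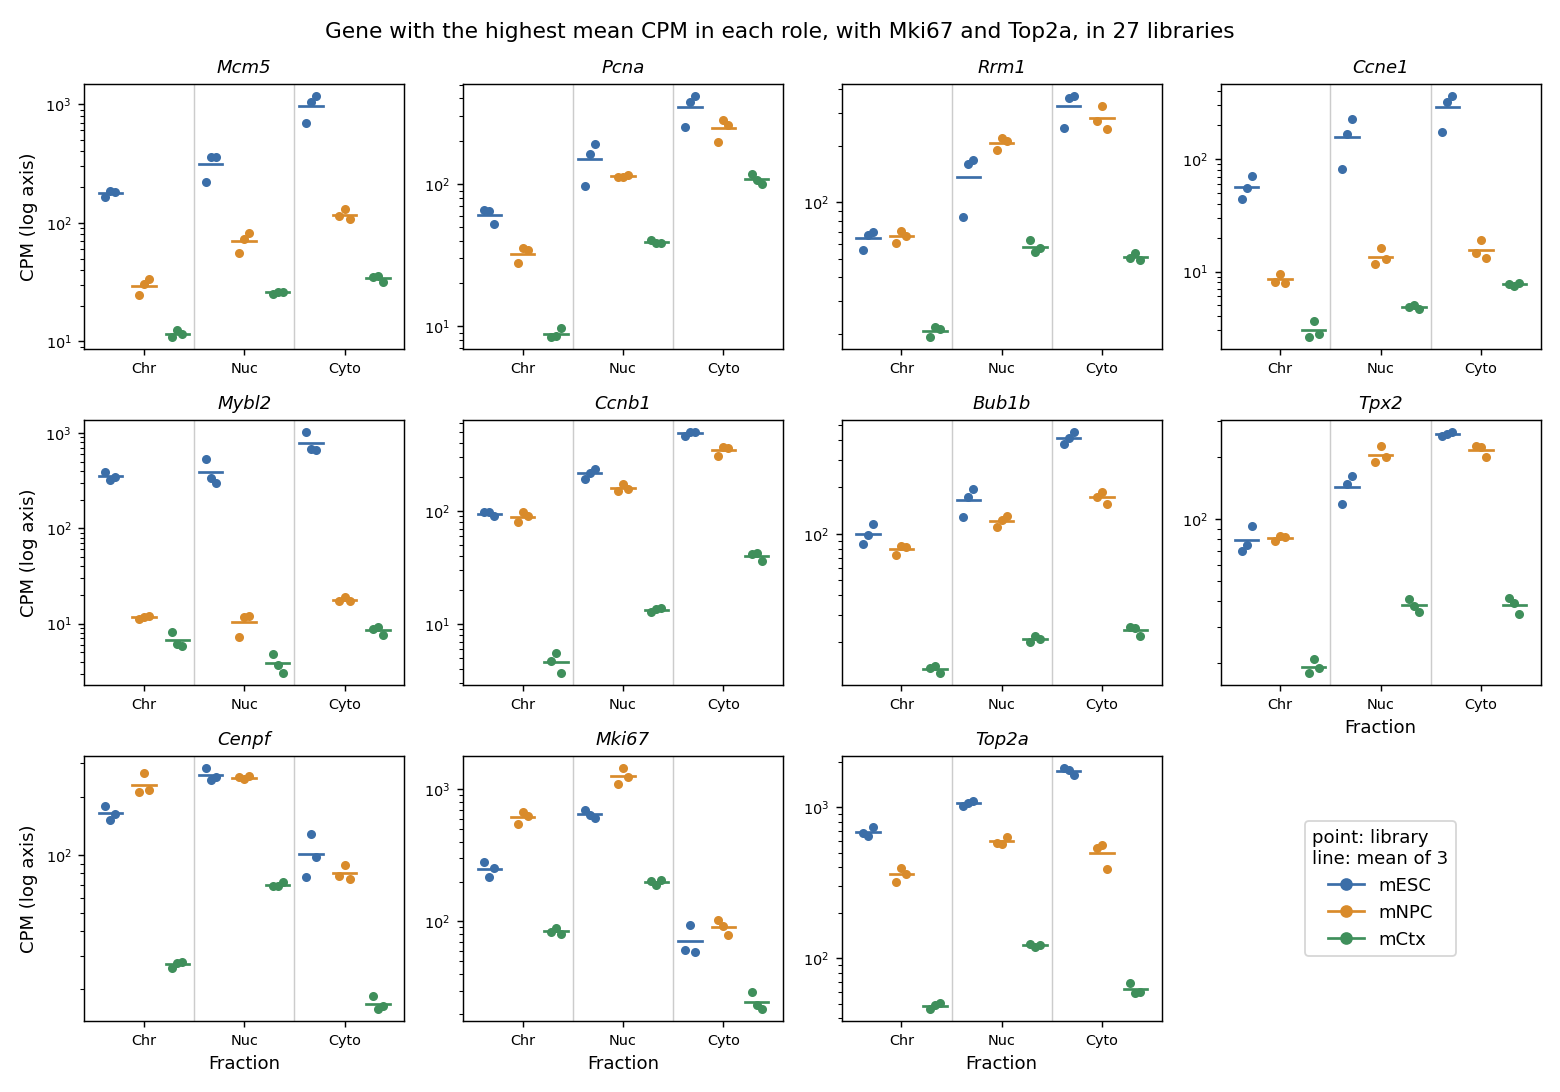
CPM (log axis) of 11 genes in each of the 27 libraries, 1 point per library, grouped by cell type and fraction, for the gene with the highest mean CPM in each role and for Mki67 and Top2a. The 3 points of each mCtx group lie below those of mNPC and mESC for these genes, and Mki67 is lowest in cytoplasm in each cell type.

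The comparison of progenitors with stem cells sets dividing cells side by side, and more members were lower than higher in progenitors. Whether the replication and the mitotic genes differ in their change was not tested. In cytoplasm 33 of the 46 were lower and 6 higher in mNPC than in mESC, beside 39.4% and 36.5% of all genes. In nucleoplasm 29 were lower and 7 higher (41.5% and 35.7% of all genes), and on chromatin 26 were lower and 12 higher (42.7% and 33.8%). The members' medians were -0.56, -0.76 and -0.94 on chromatin, in nucleoplasm and in cytoplasm, beside -0.18, -0.14 and -0.07 over all genes. This comparison and the one of neurons with progenitors share the mNPC libraries, so their values are set side by side only. The mESC and mNPC lines also differ in culture medium, which cannot be told apart from cell type.

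Of the 20 replication and G1/S genes 17 were lower in mNPC cytoplasm, and Ccne2, Rrm1 and Rrm2 did not pass. On chromatin 19 were lower, and Rrm1 did not pass. In nucleoplasm 18 were lower, Rrm1 was higher and Rrm2 did not pass. Their medians were -1.76, -1.53 and -2.14 on chromatin, in nucleoplasm and in cytoplasm. The origin licensing genes encode loading factors, helicase subunits and geminin. They were lower in 10 of 10 in each fraction, with medians of -1.99, -1.78 and -2.83. Orc1, the large subunit of the origin recognition complex, stood at 94.5, 125 and 127 CPM in mESC cytoplasm and 3.89, 4.75 and 4.46 CPM in mNPC, 26.4-fold lower (-4.72 ± 0.15, adjusted p = 1.97e-19). On the opposite strand, 63.3% of its length is covered by another gene, and whether reads were counted by strand is not given in the sources used here.

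The Mcm5 cytoplasm libraries of mESC were at 695, 1037 and 1178 CPM and those of mNPC at 114, 130 and 108 CPM (-3.05 ± 0.19, adjusted p = 8.24e-14). The loading factors Cdt1 (-3.62 ± 0.18, adjusted p = 1.33e-15) and Cdc6 (-3.62 ± 0.26, adjusted p = 2.23e-12) were lower by a similar step, although a gene on the same strand, Gm20388, covers the whole span of Cdt1. Cyclin E1 (Ccne1), which starts S phase with Cdk2, was at 175, 325 and 367 CPM in mESC and 14.6, 19.2 and 13.3 CPM in mNPC, 18.4-fold lower (-4.20 ± 0.29, adjusted p = 6.94e-13). For Mcm5 and Ccne1 the mESC library 1 was the lowest of its group, and without it the changes were -3.23 and -4.45.

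Pcna stood at 254, 380 and 418 CPM in mESC cytoplasm and 199, 282 and 260 CPM in mNPC, where the groups overlapped (-0.50 ± 0.18, adjusted p = 0.0159). This call was lost without mESC library 2 (-0.44), mESC library 3 (-0.35) or mNPC library 1 (-0.36), and was -0.68 without mESC library 1. Rrm1 was at 248.6, 358 and 369 CPM in mESC and 269, 325 and 246 CPM in mNPC, and did not pass. Its groups overlapped widely. The mESC libraries numbered 1 held less of the replication genes than the other mESC libraries, with a sum of 4748 CPM against 6300 and 6567 in cytoplasm and 1669 against 2621 and 2715 in nucleoplasm. Leaving out the library numbered 1 gave 35 lower members in cytoplasm, 30 in nucleoplasm and 26 on chromatin.

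Mybl2 encodes B-Myb, a transcription factor of late S phase and G2 that is abundant in embryonic stem cells. It made the largest step of the 46, from 1029, 682 and 668 CPM in mESC cytoplasm to 17.2, 18.9 and 17.1 CPM in mNPC, 44.6-fold lower (-5.48 ± 0.24, adjusted p = 4.82e-17). The mESC library 1 was the highest for this gene, and the change was -5.24 without it. Foxm1, the transcription factor of G2 genes, went the other way, from 44.7, 38.5 and 34.0 CPM in mESC to 72.0, 83.8 and 79.1 CPM in mNPC (1.00 ± 0.16, adjusted p = 4.32e-06). The groups did not overlap, and the same direction passed in all 3 fractions, though with TPM the cytoplasmic change was 0.13 and did not pass. In nucleoplasm the TPM of Foxm1 went the other way, at 9.28, 7 and 7.71 in mESC and 4.74, 3.54 and 6.24 in mNPC, without overlap.

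The mitotic genes had medians near 0, 0.24 on chromatin, -0.11 in nucleoplasm and -0.50 in cytoplasm. On chromatin 11 of the 23 were higher and 5 lower (33.8% and 42.7% of all genes). In nucleoplasm 5 were higher and 9 lower (35.7% and 41.5%), and in cytoplasm 5 and 14 (36.5% and 39.4%). Mki67, Ccna2 and Nuf2 were higher in mNPC in all 3 fractions by this scaling. Mki67 was at 281, 218 and 254 CPM in mESC chromatin and 545, 669 and 624 CPM in mNPC chromatin (1.29 ± 0.16, adjusted p = 6.72e-08). In cytoplasm it was at 60.9, 94.6 and 59.0 CPM in mESC and 102, 92.9 and 79.3 CPM in mNPC, and the groups overlapped (0.36 ± 0.16, adjusted p = 0.0456). That cytoplasmic call was lost without mESC library 1 (0.26) or 3 (0.24) or mNPC library 1 (0.28) or 2 (0.35), and its direction turned with TPM (-0.70). Nuf2, a subunit of the kinetochore's microtubule-binding NDC80 complex, was at 34.5, 37.2 and 38.8 CPM in mESC cytoplasm and 89.3, 110 and 101 CPM in mNPC (1.44 ± 0.13, adjusted p = 1.02e-10), and at 0.21 with TPM, where it did not pass.

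The other mitotic genes higher in mNPC were Aurka, Ccnb2, Cdc20, Cenpa, Cenpe, Cenpf, Kif11 and Kif23 on chromatin, Cdc20 and Tpx2 in nucleoplasm, and Cenpa and Cenpe in cytoplasm. How many passed as higher depended on the scaling of the counts and on whether TPM were used. With total counts 7 members were higher and 28 lower on chromatin, with TPM none was higher in any fraction (40, 46 and 42 lower on chromatin, in nucleoplasm and in cytoplasm), and with rescaled TPM 5 were higher and 26 lower on chromatin. Lower in mNPC cytoplasm were Top2a, at 1826, 1781 and 1634 CPM in mESC and 539, 560 and 391 CPM in mNPC (-1.81 ± 0.13, adjusted p = 1.09e-12), and Bub1b, at 381, 414 and 454 CPM and 174, 187 and 154 CPM (-1.28 ± 0.13, adjusted p = 1.83e-09). Both genes' groups were separate. Ccnb1 was at 463, 503 and 505 CPM in mESC and 311, 372 and 361 CPM in mNPC (-0.50 ± 0.12, adjusted p = 0.000385), a small step without overlap.

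**Figure D3:**
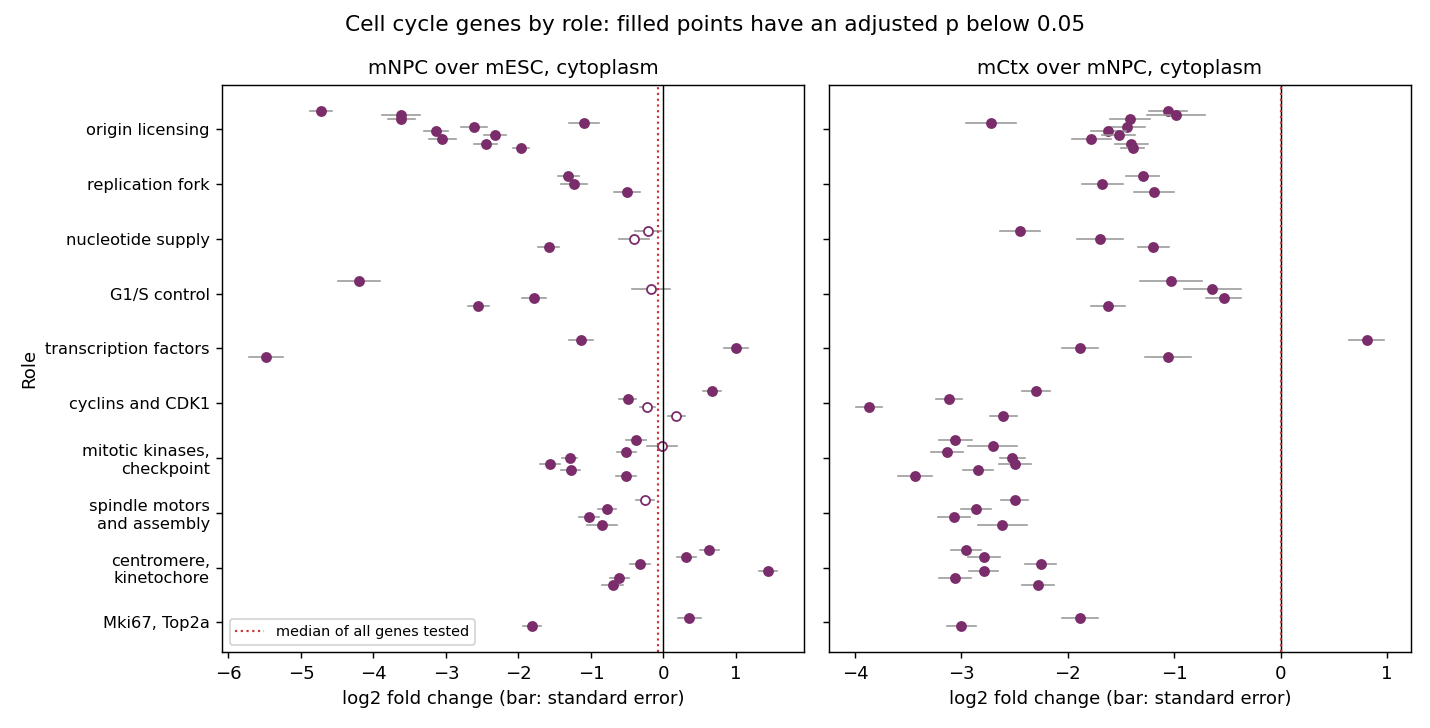
Log2 fold changes in cytoplasm by role, mNPC over mESC (left) and mCtx over mNPC (right), 1 point per gene with its SE as a bar, filled where the adjusted p is under 0.05. The replication and G1/S genes lie left of 0 in both panels, and the mitotic genes lie on both sides of 0 for mNPC over mESC and left of 0 for mCtx over mNPC.

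Summed over genes, the replication and G1/S genes were at 5872 ± 982 CPM in mESC cytoplasm, 1559 ± 160 in mNPC and 528.8 ± 24.1 in mCtx. The mitotic genes were at 5701 ± 210.2, 3563 ± 256 and 514.1 ± 28.5 CPM (SD, n = 3). On chromatin the mitotic sums of mESC and mNPC overlapped, at 2441, 2299 and 2613 CPM and 2407, 2929 and 2713 CPM, while those of the replication genes were apart, at 1275, 1382 and 1416 CPM and 431.9, 525 and 522.3 CPM. Against stem cells directly, neurons were lower in 46 of 46 members on chromatin (47.4% of all genes lower), 46 in nucleoplasm (43.4%) and 45 in cytoplasm (41.6%), and none was higher (33%, 38.8% and 40.1%). Mybl2 was 92.8-fold lower in cytoplasm (-6.54 ± 0.25, adjusted p = 2.82e-18) and Top2a 28.1-fold lower (-4.81 ± 0.15, adjusted p = 3.24e-20). E2f1, at 15.2, 22.5 and 20.04 CPM in mESC cytoplasm, was the member that did not pass there, and its groups overlapped.

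**Figure D4:**
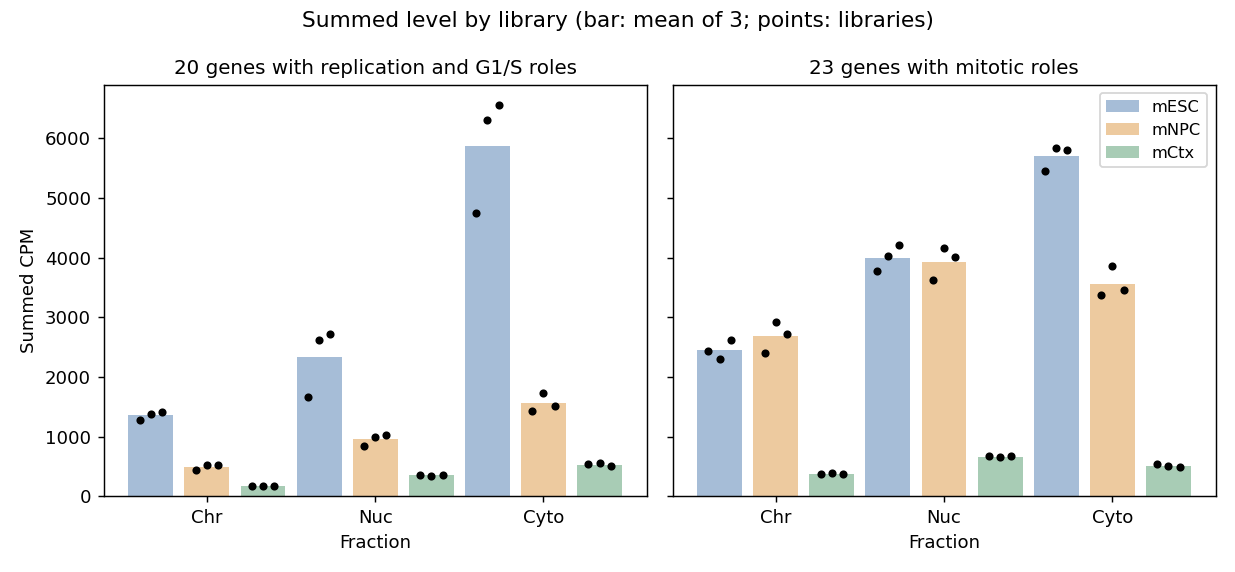
Summed CPM of the 20 replication and G1/S genes (left) and the 23 mitotic genes (right) in each of the 27 libraries, by cell type and fraction. The mESC libraries numbered 1 lie below the other mESC libraries for the replication genes in nucleoplasm and cytoplasm, and the mitotic sums of mESC and mNPC overlap on chromatin and in nucleoplasm.

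Other genes of the same pathway were counted in cytoplasm from lists drawn up by function. Of all genes 39.4% were lower and 36.5% higher in mNPC than in mESC, and 33.4% and 32.6% in mCtx than in mNPC. Of 43 further replication genes 40 were lower and none higher in mNPC than in mESC (median -1.58), and 40 were lower and none higher in mCtx than in mNPC (median -1.22). Mcm10, a replication initiation factor, went from 262.5 CPM in mESC to 25.1 CPM in mNPC (-3.38 ± 0.16, adjusted p = 1.97e-16), and Chaf1b, of chromatin assembly factor 1, from 169.8 to 21.8 CPM. The polymerase delta gene Pold1 went from 98.8 CPM in mNPC to 13.9 CPM in mCtx. Rfc2, Rpa3 and Tk1 did not pass in the first comparison, nor Orc3, Orc4 and Pold3 in the second. Tk1, which makes thymidine nucleotides, was lower in mCtx at 13.1 CPM against 73.5 CPM in mNPC (-2.48 ± 0.35, adjusted p = 5.07e-07).

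All of 46 further mitotic genes were lower in mCtx than in mNPC (median -2.53), beside 33.4% of all genes. In mNPC 26 were lower and 10 higher than in mESC (median -0.47), beside 39.4% and 36.5% of all genes. The 10 were Cdc25b, Cdc25c, Ckap2, Kifc1, Nusap1, Pbk, Prc1, Racgap1, Spc25 and Ube2c. Cdc25b, a phosphatase that activates Cdk1, rose from 17.6 to 103.7 CPM (2.56 ± 0.14, adjusted p = 1.13e-14), and the kinase gene Pbk from 41.8 to 142.1 CPM. Espl1, which encodes the protease separase, was lower in mNPC, at 34.7 CPM against 251 CPM in mESC, as was the condensin gene Smc2, at 56.1 against 198.6 CPM. Ckap2 and Hmmr, both for spindle proteins, made the largest steps down in neurons, from 173 to 16.8 CPM and from 101.7 to 10.1 CPM.

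Regulators of G1 were counted the same way. Of all genes 36.5% were higher and 39.4% lower in mNPC than in mESC, and 32.6% and 33.4% in mCtx than in mNPC. Of 6 D-type cyclin and G1 kinase genes 3 were higher in mNPC than in mESC (Ccnd1, Ccnd2 and Cdk4) and 3 lower. Ccnd2 rose from 11.7 to 207.5 CPM (4.15 ± 0.46, adjusted p = 8.47e-09). In mCtx 4 were lower than in mNPC, Cdk6 was higher at 19.3 against 8.47 CPM, and Ccnd2 did not pass. Ccnd1 went from 296.3 CPM in mNPC to 17.5 CPM in mCtx (-4.08 ± 0.38, adjusted p = 3.76e-10). Of 10 genes for Cdk inhibitors and pocket proteins, the brakes of G1, 8 were higher in mNPC than in mESC and Cdkn1c was lower (median 1.84). In mCtx 9 were lower than in mNPC and Rb1 did not pass (median -1.82). Cdkn2c, the p18 inhibitor of Cdk4 and Cdk6, stood at 1.30 CPM in mESC, 140.9 CPM in mNPC and 19.9 CPM in mCtx (6.74 ± 0.18, adjusted p = 7.64e-21 for mNPC against mESC and -2.82 ± 0.14, adjusted p = 1.02e-15 for mCtx against mNPC). Cdkn1b, the p27 inhibitor, rose from 29.6 to 164.3 CPM between mESC and mNPC (2.47 ± 0.11, adjusted p = 1.9e-16).

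The comparison of fractions asks which members take a larger share of RNA on chromatin than in cytoplasm. Most took a smaller one. In mESC 38 members were lower on chromatin and 5 higher (32.9% and 44.6% of all genes), in mNPC 35 and 8 (32.5% and 37%), and in mCtx 31 and 8 (37.6% and 35.6%). The medians were -1.70, -1.09 and -1.30 in mESC, mNPC and mCtx, beside 0.36, 0.06 and 0 over all genes. In mCtx the direction turned with TPM, with 20 members higher and 5 lower on chromatin, while the median of all genes shifted to 1.23, and in mNPC TPM gave 11 higher and 25 lower. In total-count scaling the mCtx split was 3 higher and 37 lower.

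Cdc20 had the steepest step toward cytoplasm among the mitotic genes of mESC, with 37.3, 33.3 and 32.0 CPM on chromatin and 313.5, 342.5 and 404.3 CPM in cytoplasm, 10.3-fold lower on chromatin (-3.37 ± 0.16, adjusted p = 3.9e-16). The step was -2.52 ± 0.15 in mNPC (adjusted p = 5.36e-14) and -3.08 ± 0.19 in mCtx (adjusted p = 7.14e-14). No chromatin library reached a cytoplasm library of the same cell type. Pcna was lower on chromatin by -2.53 ± 0.20 in mESC (adjusted p = 7.3e-12), -2.93 ± 0.20 in mNPC (adjusted p = 6.44e-13) and -3.62 ± 0.22 in mCtx (adjusted p = 3.8e-14), where its chromatin libraries were at 8.36, 8.51 and 9.62 CPM.

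Mki67, Cenpe, Cenpf and Ttk were higher on chromatin than in cytoplasm in all 3 cell types. Mki67, which spans 26.6 kb of chromosome 7 from 135689788 to 135716379 (mm10), was higher on chromatin by 1.81 ± 0.16 in mESC (adjusted p = 1.48e-10), 2.74 ± 0.17 in mNPC (adjusted p = 7.43e-14) and 1.77 ± 0.17 in mCtx (adjusted p = 3.65e-10). The chromatin libraries named above, 281, 218 and 254 CPM in mESC, lay above the cytoplasm libraries, 60.9, 94.6 and 59.0 CPM, and the same held in the other cell types. Per length the direction was the same, with TPM means on chromatin and in cytoplasm of 24.4 and 3.66 (mESC), 29.0 and 1.86 (mNPC), and 12.7 and 0.817 (mCtx).

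Cenpe, a kinesin that carries chromosomes to the spindle equator, was at 173.5, 140.4 and 139 CPM in mESC chromatin and 48.7, 74.3 and 59.2 CPM in mESC cytoplasm (1.31 ± 0.14, adjusted p = 2.34e-09), with 1.65 ± 0.14 in mNPC (adjusted p = 3.26e-11) and 1.62 ± 0.15 in mCtx (adjusted p = 2.21e-10). Its groups did not overlap in mESC. Cenpf was at 211.8, 265.4 and 215.8 CPM in mNPC chromatin and 77.7, 88.9 and 74.8 CPM in mNPC cytoplasm (1.52 ± 0.14, adjusted p = 1.37e-10), again apart. Ttk, the checkpoint kinase Mps1, was at 13.6, 12.3 and 13.6 CPM in mCtx chromatin and 6.38, 5.43 and 5.09 CPM in mCtx cytoplasm. Also higher on chromatin were Ccne2 in mESC, Cdc25a in mNPC, Ndc80 in mCtx, and Bub1, Kif23 and Orc1 in mNPC and mCtx. Those that did not pass were Bub1, E2f1 and Orc1 in mESC, Cdc6, Kif11 and Ndc80 in mNPC, and Ccnb2, Cdc6, Chek1, Gins1, Kif11, Mybl2 and Tyms in mCtx.

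Members with longer spans had higher chromatin-to-cytoplasm fold changes. Spans ran from 4.153 to 60.98 kb, with a median of 15.8 kb. The 12 members under 10 kb were lower on chromatin, and their medians were -2.36 (mESC), -1.96 (mNPC) and -2.29 (mCtx). The 17 from 10 to 25 kb had medians of -1.68, -1.38 and -1.30. The 17 of 25 kb or more had medians of -0.67, -0.08 and 0.22, with 4, 7 and 8 higher and 11, 8 and 6 lower. Spearman's rho of span and fold change across the 46 members came to 0.551 (mESC), 0.656 (mNPC) and 0.816 (mCtx), as a description over genes that share libraries. For the exon share of the span, rho with the fold change was -0.291 (mESC), -0.340 (mNPC) and -0.615 (mCtx). Neither relation was computed over all genes or with TPM, so neither is shown to be particular to these members. Since introns are counted, a gene's value adds spliced and unspliced RNA.

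**Figure D5:**
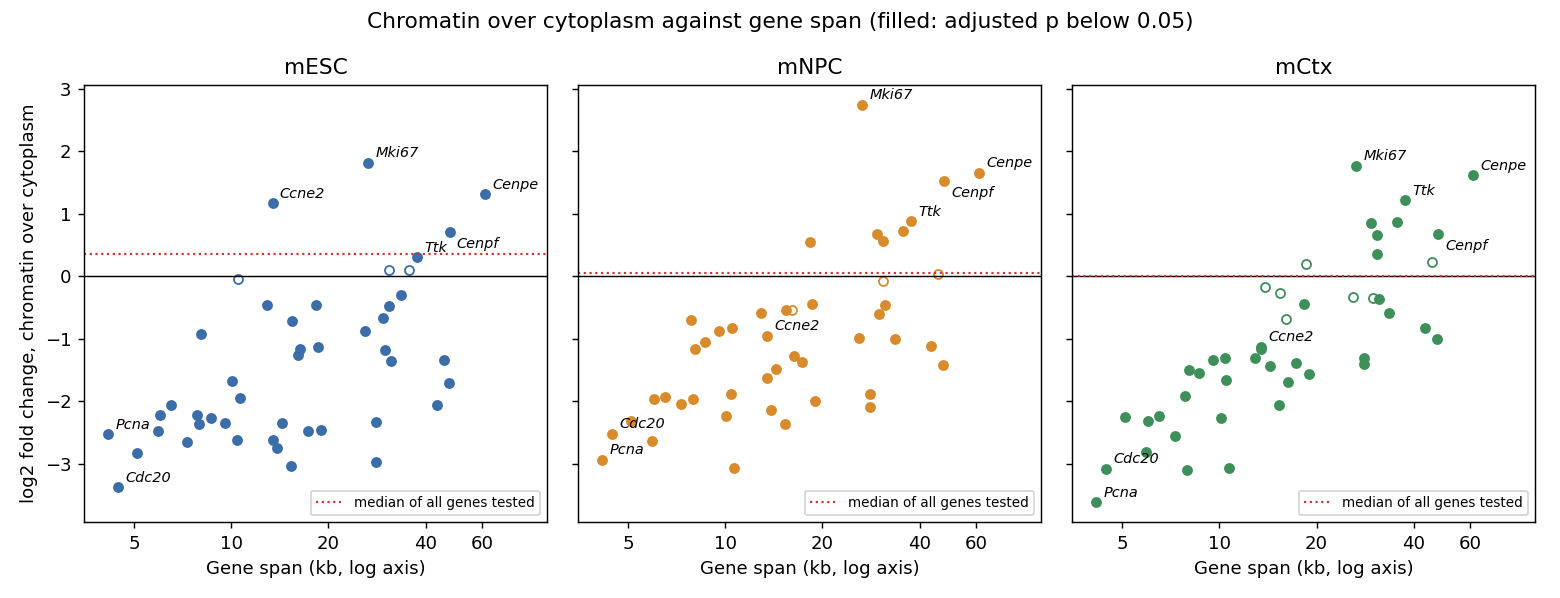
Log2 fold change of chromatin over cytoplasm against gene span (kb, log axis) for the 46 genes, 1 panel per cell type. Genes under 10 kb lie below 0 in the 3 panels, and Mki67, Cenpe, Cenpf and Ttk lie above 0 in each.

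Nucleoplasm stood between the other fractions for most members. Against chromatin 30 members were higher and 4 lower in mESC (30% and 36.3% of all genes), 26 and 8 in mNPC (32.5% and 33.5%), and 24 and 6 in mCtx (30.6% and 26.5%), with medians of 0.71, 0.62 and 0.56. Total counts narrowed the split in mESC and mNPC, and median-ratio size factors narrowed it in mCtx. Only TPM turned it, in mNPC and mCtx. With total counts it was 17 higher and 12 lower in mESC, and 20 and 15 in mNPC. With median-ratio size factors it was 21 and 11 in mCtx. With TPM it was 12 and 12 for mESC, 5 and 18 for mNPC, and 6 and 13 for mCtx. By CPM, members higher in nucleoplasm in all 3 cell types included Mki67, Top2a, Mcm2 to Mcm6, Rrm1, Rrm2, Cdc20, Plk1 and Birc5. Lower in all 3 were Orc1, Ttk and Tyms. The TPM of Top2a in mNPC was lower in nucleoplasm, at 21.11 to 37.12 against 44.6 to 55.19 on chromatin. Its mESC mean was also lower there, 143.1 against 192.6, with overlap, and its mCtx mean was higher, 22.08 against 19.97. Rrm1 had lower mean TPM in nucleoplasm for mESC (24.61 against 26.91) and mCtx (15.1 against 17.58), both with overlap. So did Mki67 in mNPC (25.08 against 29.0) and Birc5 in mCtx (3.36 against 4.17). Rrm2 in mESC (31.91 against 32.42) and mNPC (9.15 against 9.27), and Mcm2 (3.85 against 3.89) and Mcm3 (3.47 against 3.49) in mNPC, were slightly lower there. All of these overlapped. Cdc20 kept its direction with TPM in each cell type. Pcna was higher in nucleoplasm than on chromatin by 1.31 ± 0.19 in mESC (adjusted p = 1.07e-06), 1.81 ± 0.19 in mNPC (adjusted p = 5.73e-09) and 2.15 ± 0.21 in mCtx (adjusted p = 2.79e-09), a direction that TPM kept in mESC and mNPC at 0.24 and 0.40 without passing. Orc1 was lower in mNPC nucleoplasm by -1.24 ± 0.17 (adjusted p = 2.88e-07).

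Against cytoplasm 35 members were lower in nucleoplasm and 4 higher in mESC (33.2% and 29.9% of all genes), 33 and 3 in mNPC (27.5% and 22.6%), and 24 and 7 in mCtx (28.6% and 29.6%), with medians of -1.03, -0.59 and -0.63. In mCtx the direction turned with TPM, with 21 higher and 3 lower, and total counts gave 4 higher and 33 lower. Mki67, Cenpe and Cenpf were the members higher in nucleoplasm in all 3 cell types. Mki67 was at 695, 644 and 608 CPM in mESC nucleoplasm, 1103, 1450 and 1239 CPM in mNPC and 203, 190.1 and 205 CPM in mCtx. These CPM values lay above those of chromatin and cytoplasm in every library of the same cell type. With TPM the mNPC nucleoplasm and chromatin libraries of Mki67 overlapped, at 20.9 to 27.42 and 26.38 to 30.76. Over cytoplasm Mki67 was 9.08-fold higher in mESC (adjusted p = 2.47e-14), 13.8-fold in mNPC (adjusted p = 2.41e-15) and 8.06-fold in mCtx (adjusted p = 1.54e-13).

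Between cell types the chromatin-to-cytoplasm ratio itself was compared by an interaction of cell type and fraction. It was higher in mNPC than in mESC for 24 members and lower for 4 (16.7% and 23.5% of all genes), with a median of 0.57 beside -0.22 over all genes. Total counts gave 15 higher and 7 lower, and TPM 13 and 1. Lower were Ccne2, E2f1, Gins2 and Nuf2. From mNPC to mCtx 5 members were higher and 8 lower (12.2% and 21.8%), with a median of 0.02 beside -0.20 over all genes. Which side was larger depended on the scaling of the counts, with 12 higher and 5 lower with median-ratio size factors and 1 and 26 with total counts. The deposited TPM, which are not a rescaling of these counts, gave 30 and 0. From mESC to mCtx 22 were higher and 8 lower (17.7% and 32.5%), which total counts turned to 2 and 21.

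Ccnb2 had the largest rise of this ratio from mNPC to mCtx, 1.96 ± 0.17 (adjusted p = 2.63e-09). Its chromatin libraries were at 23.9, 29.3 and 24.2 CPM in mNPC and its cytoplasm libraries at 105, 121 and 114 CPM, whereas in mCtx they were at 7.20, 6.82 and 6.56 CPM and 7.25, 8.002 and 7.98 CPM. The fractions were far apart in progenitors and close together in neurons, where the difference of chromatin and cytoplasm did not pass. Ccne2, the second cyclin E, was higher on chromatin in mESC (1.17 ± 0.26, adjusted p = 0.000204) and lower in mNPC (-0.95 ± 0.27, adjusted p = 0.00289) and mCtx (-1.13 ± 0.30, adjusted p = 0.00145), where TPM turned the direction to 0.53 and 1.49. On the opposite strand 41.9% of it is covered by another gene. The helicase gene Mcm7 had a ratio higher in mNPC than in mESC by 1.51 ± 0.15 (adjusted p = 1.43e-08) and lower in mCtx than in mNPC by -1.21 ± 0.16 (adjusted p = 1.29e-06). Its chromatin libraries were at 139.1, 138.5 and 130.3 CPM in mESC, 91.1, 104.1 and 103.1 CPM in mNPC and 18.0, 15.1 and 16.2 CPM in mCtx.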

How the data were processed

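The files hold total RNA from 3 fractions of 3 cell types, 27 libraries. The authors deposited whole-number read counts per gene for 37332 genes, and TPM for 53379 genes. Chromatin columns are called expected counts in the analysis notes only because a format check reads the fraction's abbreviation as chromosome, and the deposited expected counts there are whole numbers used without rounding. STAR, featureCounts, kallisto and the mm10 build are named, per the submitters' processing notes, with no versions or roles. How strand, multi-mapped reads and overlapping genes were handled is not given in the sources used here. The deposited gene length equals the gene span for all 37332 genes. At least 10% of the span of 6 members (Ccna2, Ccne2, Cdt1, Gins2, Kif20a and Orc1) is covered by another gene, all of it for Cdt1 (same strand) and Gins2 (opposite strand), so their counts are uncertain.

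Gene names came from GENCODE vM21 by gene ID. A mean for each group was fitted to the counts with edgeR 4.0.16 under R 4.3.3, after trimmed-mean scaling and the default low-count filter, and compared by the quasi-likelihood test on 18 residual degrees of freedom, with Benjamini-Hochberg adjustment at 0.05 over 18249 genes within each comparison. The tests were tested on simulated data. Genes without counts in either group of a comparison have a fitted change of 0, so a median over all genes can be 0. Tried as alternatives were total-count scaling, median-ratio size factors, DESeq2 1.42.0, a fit of the compared groups only, all genes without the low-count filter, a test against a 2-fold change, the replicate number as a block, limma 3.58.1 on log2(TPM + 1) for 25256 genes at 1 TPM or more in 3 libraries, the same after median-ratio rescaling, and leaving out each library. The pseudocount of 1 understates changes of low genes.

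The members and gene lists were chosen with earlier results of these data known. All members may be named. Values per library are given for the member with the highest mean CPM in each role, for Mki67 and Top2a, and for others that a result turns on, which were chosen after their values were seen. In ratio comparisons the 3 largest changes each way are named, and of other lists the 2 largest each way at 10 CPM or more and those called against the larger direction. Deviations of libraries with the same number from the means of their groups correlated at 0.39 to 0.75 over the mESC fractions. Between mNPC chromatin and cytoplasm they correlated at 0.16 to 0.31. The main fit held no term for such pairing, so each SE and adjusted p printed for fractions and ratios treats the libraries as unpaired. The replicate number as a block was tried as an alternative only. In the other comparisons not every pair was over 0.1. Figures were drawn with matplotlib 3.10.9.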

Additional observations from a re-analysis of the deposited data

Results flagged for a closer look

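A test of the difference itself set the chromatin-to-cytoplasm ratio apart between cell types for the following members (edgeR quasi-likelihood interaction, log2 scale with SE, adjusted p over all 18249 genes). No explanation was tested. In mNPC against mESC the ratio was higher for 24 members, beside 16.7% higher and 23.5% lower of all genes. The largest rises were those of Mcm7 (1.51 ± 0.15, adjusted p = 1.43e-08), Ccne1 (1.46 ± 0.38, adjusted p = 0.00291) and the spindle kinesin gene Kif11 (1.37 ± 0.18, adjusted p = 1.27e-06). The largest falls were those of Ccne2 (-2.12 ± 0.37, adjusted p = 5.06e-05), Gins2 (-1.12 ± 0.28, adjusted p = 0.00199) and E2f1 (-0.77 ± 0.23, adjusted p = 0.00889), the last of which was 0.014 with rescaled TPM.

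In mCtx against mNPC the ratio was lower for 8 of the 46 members and higher for 5, beside 21.8% lower and 12.2% higher of all genes. TPM gave 0 lower and 30 higher members. The 8 were Ccna2, Ccnb1, Cdc25a, Cenpf, E2f1, Foxm1, Mcm7 and Mki67. The largest falls were those of Mcm7 (-1.21 ± 0.16, adjusted p = 1.29e-06), Ccnb1 (-1.15 ± 0.18, adjusted p = 2.06e-05) and the phosphatase gene Cdc25a (-0.99 ± 0.23, adjusted p = 0.00164), and with TPM the direction turned for Ccnb1 (0.32) and Cdc25a (0.41). It was higher for Ccnb2 (1.96 ± 0.17, adjusted p = 2.63e-09), Rrm1 (0.78 ± 0.26, adjusted p = 0.0219) and Gins1 (0.65 ± 0.23, adjusted p = 0.0268), and for Chek1 and Plk1. The call of Rrm1 was lost without mNPC chromatin library 1 (0.72), mNPC cytoplasm library 2 (0.66) or mCtx chromatin library 2 (0.73). That of Gins1 was lost without mNPC chromatin library 3 (0.56), mNPC cytoplasm library 2 (0.60) or 3 (0.61), mCtx chromatin library 1 (0.56) or 2 (0.63), or mCtx cytoplasm library 2 (0.62).

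In mCtx against mESC the ratio was higher for 22 members, beside 17.7% higher and 32.5% lower of all genes. The largest rises were those of Ccnb2 (2.56 ± 0.17, adjusted p = 6.13e-12), Kif11 (1.56 ± 0.19, adjusted p = 1.69e-07) and Mcm6 (1.56 ± 0.22, adjusted p = 1.51e-06). The largest falls were those of Ccne2 (-2.29 ± 0.39, adjusted p = 2.3e-05), E2f1 (-1.60 ± 0.23, adjusted p = 2.4e-06) and Gins2 (-1.13 ± 0.34, adjusted p = 0.00781), and Ccnb1, Cdk1, Cenpa, Foxm1 and Pcna were also lower. With TPM the direction turned for Gins2 (1.5) and E2f1 (0.040), and with total counts 2 members were higher and 21 lower. Another gene covers the whole span of Gins2 on the opposite strand.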

How the results depend on the processing

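Counts of members are given for the direction with more members. With a test against a 2-fold change they were 17, 18 and 19 in mNPC against mESC on chromatin, in nucleoplasm and in cytoplasm. The same test gave 9, 10 and 9 for nucleoplasm against chromatin in mESC, mNPC and mCtx, 11, 2 and 9 for nucleoplasm against cytoplasm, and 21 for chromatin against cytoplasm in mNPC. For the ratio it gave 1, 0 and 4 in mNPC against mESC, mCtx against mNPC and mCtx against mESC. With TPM the counts were 40 and 46 in mNPC against mESC on chromatin and in nucleoplasm, 24 and 16 in mCtx against mNPC, and 12, 5 and 6 for nucleoplasm against chromatin in mESC, mNPC and mCtx. They were 5 and 3 for chromatin and for nucleoplasm against cytoplasm in mCtx, and 13, 0 and 37 for the 3 ratios. With rescaled TPM nucleoplasm against chromatin in mCtx gave 15 and the ratio 3 in mCtx against mNPC and 34 in mCtx against mESC. Total counts gave 17 for nucleoplasm against chromatin in mESC and 15, 26 and 2 for the ratios. For the ratio in mCtx against mNPC, 5 were lower with median-ratio size factors and with DESeq2, and 9 with only the compared groups, each time fewer than were higher. The causes were not tested.

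Among 72 fold changes of single members that were refitted under the alternatives, those that turned in direction were Mki67 in mNPC against mESC in cytoplasm (-0.70 with TPM, -0.18 rescaled), Ccne2 on chromatin against cytoplasm in mNPC (0.53, 0.14 rescaled) and mCtx (1.49, 0.29 rescaled), and, for the ratio, E2f1 in mNPC against mESC (0.014 rescaled), Ccnb1 (0.32 with TPM), Cdc25a (0.41 with TPM) and Gins1 (-0.094 with total counts) in mCtx against mNPC, and E2f1 (0.040 with TPM) and Gins2 (1.5, 1.2 rescaled) in mCtx against mESC. Of 972 values of 72 results for single members under alternatives, 923 kept direction and call, 36 lost the call and 13 turned. For each result at least as many values came from refits without 1 library as from the other alternatives. The 13 that turned all came from TPM, rescaled TPM or total counts. The 72 results leave out some changes that TPM turned, such as that of Mcm5 in mCtx against mNPC on chromatin. With the replicate number as a block the counts were 38 for chromatin against cytoplasm in mESC, 36 in mNPC and 34 in mCtx, and 45 in mCtx against mNPC in cytoplasm, and no count moved by over 1.5 times. Leaving out each library in turn gave 24 to 26, 27 to 30 and 30 to 35 in mNPC against mESC, 44 to 45, 43 to 44 and 44 to 45 in mCtx against mNPC on chromatin, in nucleoplasm and in cytoplasm, and 6 to 11 for the ratio in mCtx against mNPC.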

Other observations

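The anaphase-promoting complex, the ubiquitin ligase that Cdc20 activates, is described here in cytoplasm. Of 13 subunit genes 10 were lower and 1, Anapc5, higher in mCtx than in mNPC cytoplasm (median log2 fold change -0.61), beside 33.4% and 32.6% of all genes. Anapc5 stood at 406.8 CPM in mNPC and 558.6 CPM in mCtx (0.46 ± 0.10, edgeR adjusted p = 0.000298). The largest falls were those of Anapc7, from 78.8 to 33.7 CPM, and Anapc13, from 57.6 to 29.1 CPM. In mNPC against mESC 4 were higher and 6 lower (median -0.14), beside 36.5% and 39.4% of all genes. Among them were Anapc13 (1.14 ± 0.14, edgeR adjusted p = 7.39e-08), Cdc26 (0.55 ± 0.17, edgeR adjusted p = 0.00475), Cdc27 (-0.91 ± 0.12, edgeR adjusted p = 1.17e-07) and Anapc10 (-0.72 ± 0.16, edgeR adjusted p = 0.000219). Whether the complex and the members differ in size of change was not tested.

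The further replication genes and further mitotic genes were counted on chromatin against cytoplasm as well, with medians of -0.98, -0.59 and -0.40 over 43 replication genes and -0.79, -0.52 and -0.38 over 46 mitotic genes in mESC, mNPC and mCtx. Of the 46 mitotic genes 11, 13 and 15 were higher on chromatin and 27, 26 and 24 lower. Of the 43 replication genes 8, 12 and 14 were higher and 29, 24 and 22 lower. Of all genes 44.6%, 37% and 35.6% were higher and 32.9%, 32.5% and 37.6% lower. These lists were not refitted with TPM, which turned the members' direction in mCtx.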
